A study of Mus musculus with 8 samples.

Results

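A set of 8 genes that place, remove or chemically feed DNA methylation were followed in leukaemic granulocyte-macrophage progenitors (L-GMP): the DNA methyltransferases Dnmt1, Dnmt3a and Dnmt3b, the TET dioxygenases Tet1, Tet2 and Tet3, and the isocitrate dehydrogenases Idh1 and Idh2. The members were chosen by symbol, as enzymes mutated in leukaemia or belonging to the same families, and all 8 of 8 were found among the 55291 genes of the count table and kept among the 17418 genes tested. The cells came from marrow of mice whose acute myeloid leukaemia is driven by the fusion oncogene MLL-AF9. The sort took cells with c-Kit, CD34 and CD16/32 on their surface and without Sca-1 or lineage markers. The 4 FL libraries came from mice labelled Dekfl/fl, and the 4 KO libraries from mice labelled Dekfl/fl,MX1-Cre, so both groups carried the floxed Dek alleles and the leukaemia driver, and the KO group alone the Cre transgene, which is driven by the interferon-inducible Mx1 promoter. Loss of Dek and the transgene with its induction cannot be told apart. Age, strain and day of deletion are not in the labels, nor is the number of mice behind each group, so p-values measure the library-to-library spread, part of which may be technical. The comparison of KO with FL describes transcripts of L-GMP that differ both in DEK, a chromatin-bound histone chaperone, and in the Cre transgene.

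DNMT1 copies methyl marks onto newly made DNA after replication, whereas DNMT3A and DNMT3B place them at sites that carried none. The TET enzymes oxidise methylated cytosine, the first step of its removal, and use oxoglutarate as a co-substrate. IDH1 in the cytosol and IDH2 in mitochondria make oxoglutarate, and their mutant forms in human leukaemia make a related metabolite that inhibits TET enzymes. DNMT3A and TET2 are among the genes most often mutated in human clonal haematopoiesis and myeloid leukaemia, and TET1 was named after its fusion to MLL in rare human leukaemias.

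Tet1 and Dnmt3a rose in KO, Idh1 rose and Idh2 fell by smaller amounts, and Dnmt1, Dnmt3b, Tet2 and Tet3 did not pass the test. The promoters of Tet1 and Dnmt3a are shown because these genes had the rises that passed in the most alternative fits. Each run is the 250 bases before the first RefSeq transcription start listed for the gene (GRCm38.p6), read along the gene's strand, with each CG dinucleotide, the substrate of the DNMT and TET enzymes, in capitals. The Tet1 sequence is at chr10:62887325-62887574 on the minus strand, and the Dnmt3a sequence at chr12:3806730-3806979 on the plus strand. Both starts and both printed runs lie inside the longer genes of the GENCODE annotation.
Tet1: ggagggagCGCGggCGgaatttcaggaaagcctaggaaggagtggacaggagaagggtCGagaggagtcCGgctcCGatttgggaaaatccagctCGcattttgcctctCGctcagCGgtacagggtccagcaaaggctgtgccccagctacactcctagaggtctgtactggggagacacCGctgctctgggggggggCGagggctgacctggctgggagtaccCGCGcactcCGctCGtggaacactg
Dnmt3a: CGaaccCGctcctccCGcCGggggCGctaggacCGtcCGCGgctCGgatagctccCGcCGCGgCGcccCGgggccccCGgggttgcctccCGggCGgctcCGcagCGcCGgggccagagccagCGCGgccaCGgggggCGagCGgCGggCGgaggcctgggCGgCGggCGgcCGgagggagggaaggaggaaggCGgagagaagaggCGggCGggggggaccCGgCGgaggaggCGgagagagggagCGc
Within the printed bases the Tet1 promoter holds 15 CG dinucleotides and the Dnmt3a promoter 38. Over the full windows of 300 bases, which reach 50 bases past the start, the counts were 17 and 46. At least as many CG were present in 31.4% and 1.65% of the 32851 promoter windows in the table, whose median was 7. The contrast depends on the start shown, as windows of further listed Dnmt3a starts held 47 and 18 CG (1.44% and 29.7% of windows). Both windows hold the GC box GGGCGG or its complement CCGCCC, as do 35.7% of all windows. All 8 members were matched, with 13 listed starts between them. No methylation was measured in these libraries, and gene counts do not say which start was used.

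Dek itself was at 129, 137, 163 and 178 CPM (reads of a gene scaled to a fixed library total, with TMM factors) in FL libraries 1 to 4 and at 21.2, 21.4, 31.0 and 16.7 CPM in KO libraries 1 to 4 (log2 fold change -2.75), lower in every KO library. Library totals were 33941940 to 58660705 counts. FL libraries held 24125 to 26053 genes with at least 1 count and KO libraries 30606 to 37801, and their TMM factors ranged over 0.68 to 0.91 and 1.20 to 1.26. That gap bears on every fold change: with all factors set to 1 (total-count scaling) the median log2 fold change of all genes moved from 0.05 to 0.64. Transcripts of the granulocyte-macrophage progenitor genes Mpo, Elane, Ctsg, Prtn3 and Ms4a3 summed to 20690 to 42470 CPM in FL and 27143 to 31489 CPM in KO. The sort gene Kit was at 77.3 to 104 CPM in FL and 107 to 172 CPM in KO (log2 fold change 0.75, adjusted p = 0.0061 by edgeR), and the sort gene Cd34 at 625 to 785 CPM in FL and 374 to 501 CPM in KO (-0.62, adjusted p = 0.0056), so these shifted in opposite directions without overlap. Ly6a, which encodes the negative marker Sca-1, was at 0.198 to 0.700 CPM in FL and 0.583 to 2.71 CPM in KO. With Fcgr3 and Fcgr2b, the 5 sort genes summed to 1481 to 1860 CPM in FL and, without overlap, to 1012 to 1369 CPM in KO. Of these 5, edgeR called 2 higher and 2 lower, beside 13.0% and 14.9% of all genes. The 8 eosinophil markers summed to 21.4 to 114 CPM in FL and 246 to 1307 CPM in KO, and the 8 late neutrophil markers to 93.0 to 711 CPM and 164 to 2442 CPM, each with its highest value in KO library 3. Prg2 made up 60.6% of the eosinophil sum and S100a8 40.4% of the late neutrophil sum. The 7 mast cell and basophil markers summed to 148 to 308 CPM in FL and, without overlap, to 65.0 to 93.4 CPM in KO. Of these 7, 2 were called lower and 1 higher, 3 were under 1 CPM in all libraries, and Cpa3 made up 46.2% of the sum. The 7 T and NK cell markers were low but also did not overlap, at 1.42 to 1.77 CPM in FL and 3.88 to 4.54 CPM in KO, and the 8 erythroid markers were at 2.11 to 4.43 CPM and 3.71 to 34.7 CPM. Of the T and NK cell markers 4 were under 1 CPM in all libraries, and Lck made up 51.9% of their sum. Hba-a1 made up 41.3% of the erythroid sum. FL and KO sums were 620 to 766 and 477 to 701 CPM for the 7 monocyte and macrophage markers, 8.95 to 14.5 and 5.89 to 11.5 CPM for the 6 megakaryocyte markers, and 89.3 to 119 and 78.9 to 102 CPM for the 7 B cell markers, of which 98.1% was Cd79b. Of the megakaryocyte markers 2 were called higher and 1 lower, and Itga2b made up 65.3% of their sum. Calls also split among the late neutrophil (1 higher, 1 lower), monocyte and macrophage (2 and 2) and B cell (1 and 1) markers. The part of these shifts in the members' changes was not tested. In bulk RNA, fewer cells of a type and less RNA per cell cannot be told apart.

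At an adjusted p under 0.05 in edgeR's quasi-likelihood fit (Benjamini-Hochberg over all genes tested), 3 of the 8 members were higher and 1 was lower in KO, while 13.0% of all genes were called higher and 14.9% lower. In 3 members every KO library lay above every FL library (15.1% of all genes), and in 1 every KO library lay below (15.8% of all genes). The shares of all genes called higher and lower were 0.614% and 0.563% with genes detected as a covariate, where 1 member was called higher and 0 lower, 5.44% and 7.31% without KO libraries 2 and 3 (2 higher, 0 lower), and 7.92% and 6.19% without a count filter (3 higher, 2 lower). With 1 library left out they were 8.22 to 13.2% and 10.9 to 14.0%, and with other tools, scaling factors, a stricter filter or a replicate block 11.5 to 15.9% and 13.4 to 17.7%.

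**Figure D1:**
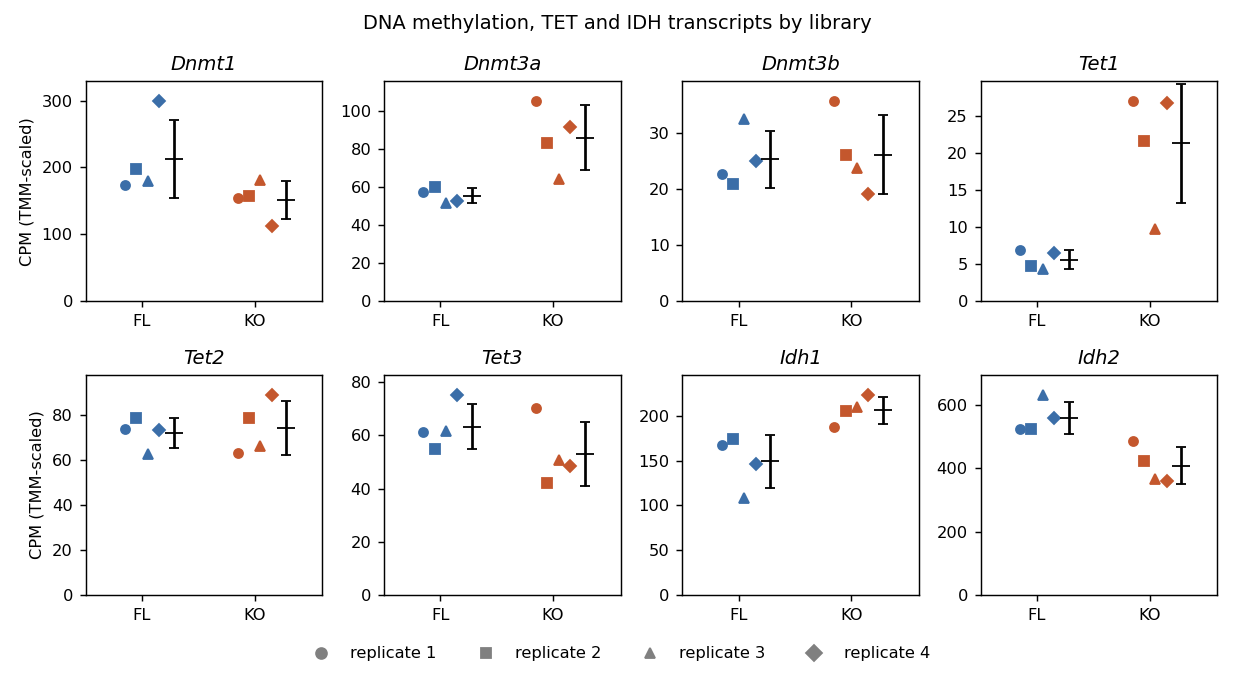
Level of each member in every library, in TMM-scaled CPM on linear axes that start at 0. Symbols mark the replicate number, and the bar beside each group is the mean with its SD (n = 4). The groups do not overlap for Dnmt3a, Tet1, Idh1 and Idh2, and KO library 3 (triangle) is the lowest KO library for Dnmt3a and Tet1.

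Among the TET enzymes, Tet1 (chromosome 10, 62804570 to 62908996, mm10) showed the largest change of any member. Its level was 6.88, 4.80, 4.36 and 6.47 CPM in FL libraries 1 to 4 and 27.0, 21.6, 9.78 and 26.7 CPM in KO libraries 1 to 4, from 176 to 310 reads per library in FL and 403 to 1646 in KO. KO library 3 lay between the other KO libraries and the FL group. The mean rose from 5.63 ± 1.23 to 21.3 ± 8.04 CPM (SD, n = 4 each), a log2 fold change of 1.92 (SE 0.30, adjusted p = 0.0011 by edgeR), or 3.78-fold, with a 95% interval of 1.26 to 2.58. Tet1 passed under all 18 alternatives run, with log2 fold changes of 1.78 to 3.18. The stricter filter (5 CPM in 4 libraries) kept Tet1 only through the KO libraries, so that fit adds no support. Without TMM factors, as that filter reads them, levels were 3.46 to 6.09 CPM in FL and 11.9 to 33.1 CPM in KO. KO library 3 also had the highest sums of eosinophil and late neutrophil markers. It further had the fewest counts (33941940) and the most genes detected (37801) of all libraries. Its Kit (107 CPM) and Cd34 (374 CPM) were the lowest of the KO group. The part of each of these in its lower Tet1 was not tested. Without KO library 3 the log2 fold change of Tet1 was 2.15.

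Tet2 (chromosome 3, 133463679 to 133545139), the TET gene most often mutated in human leukaemia, was at 73.6, 78.5, 62.4 and 73.1 CPM in FL libraries 1 to 4 and at 62.8, 78.6, 66.1 and 88.8 CPM in KO libraries 1 to 4. The groups overlapped, with a difference of 0.04 on the log2 scale (SE 0.13, adjusted p = 0.83 by edgeR, 95% interval -0.25 to 0.33). Tet3 (chromosome 6, 83362373 to 83459084), best known for oxidising the paternal genome in the mouse zygote, was at 61.3, 55.0, 61.5 and 75.2 CPM in FL and 70.3, 42.2, 50.7 and 48.6 CPM in KO, in the order of the library numbers. KO library 1 lay within the FL range and the other 3 KO libraries below it. On the log2 scale it differed by -0.26 (SE 0.16, adjusted p = 0.27 by edgeR, 95% interval -0.61 to 0.10).

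Within the family, Tet1 took a larger share of TET transcripts in KO. Per kilobase of exon, Tet1 made up 4.31% ± 0.735 of the summed TET level in FL and 15.02% ± 4.52 in KO (SD, n = 4 each). Tet2 made up 50.7% ± 4.23 in FL and 49.4% ± 7.35 in KO, and Tet3 45.0% ± 4.16 and 35.6% ± 7.26. Tet1 thus remained the scarcest TET transcript in each of the 8 libraries. The shares of Tet2 and Tet3 depend on the gene length used: with the length of the transcript that has the longest coding sequence, an alternative chosen after seeing the data, Tet3 made up 55.9% and Tet2 42.1% in FL, and Tet1 2.05% in FL and 7.81% in KO.

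Among the methyltransferases, Dnmt3a (chromosome 12, 3806007 to 3914443) rose. It was at 57.6, 60.2, 51.7 and 52.8 CPM in FL libraries 1 to 4 and at 105, 83.5, 64.3 and 91.6 CPM in KO libraries 1 to 4. The FL libraries lay close together, whereas the KO libraries spread, with KO library 3 only just above the FL group. The mean went from 55.6 ± 4.01 to 86.2 ± 17.2 CPM (SD, n = 4 each), a log2 fold change of 0.63 (SE 0.14, adjusted p = 0.0081 by edgeR, 95% interval 0.32 to 0.95), or 1.55-fold. Dnmt3a passed under 17 of 18 alternatives. With the count of detected genes as a covariate, which does not overlap between the groups, its log2 fold change was 1.18 and its adjusted p 0.077, and the range of adjusted p over all alternatives was 2.3e-04 to 0.077.

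Dnmt3b (chromosome 2, 153649450 to 153687730) was at 22.7, 20.9, 32.7 and 25.1 CPM in FL libraries 1 to 4 and at 35.8, 26.2, 23.7 and 19.14 CPM in KO libraries 1 to 4. The FL range lay inside the KO range, and the change was 0.05 on the log2 scale (SE 0.20, adjusted p = 0.88 by edgeR, 95% interval -0.39 to 0.49). Dnmt1 (chromosome 9, 20907209 to 20959888), by far the most abundant methyltransferase transcript, was at 174, 197, 180 and 299 CPM in FL and 155, 157, 182 and 113 CPM in KO, in the order of the library numbers. FL library 4 stood above the other FL libraries, and KO library 3 lay within the FL range. On the log2 scale KO differed from FL by -0.49 (SE 0.19, adjusted p = 0.085 by edgeR, 95% interval -0.91 to -0.06), and by -0.29 without FL library 4. Without a count filter Dnmt1 was called lower (-0.54, adjusted p = 0.0054), whereas under total-count scaling the value was 0.13; the range of adjusted p over all alternatives was 0.0054 to 0.507.

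Per kilobase of exon, Dnmt1 made up 77.0% ± 4.85 of the summed DNMT level in FL and 66.4% ± 6.01 in KO, Dnmt3a 9.29% ± 2.01 and 17.1% ± 4.49, and Dnmt3b 13.8% ± 3.78 and 16.5% ± 2.78 (SD, n = 4 each). In the order of libraries 1 to 4, the Dnmt3a share was 11.0, 10.5, 9.16 and 6.52% in FL and 18.5, 16.0, 11.6 and 22.4% in KO. Every KO library lay above every FL library, with KO library 3 again nearest to the FL group.

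The IDH genes moved apart. Idh1 (chromosome 1, 65158616 to 65186500) was at 168, 174, 109 and 146 CPM in FL libraries 1 to 4 and at 187, 205, 210 and 223 CPM in KO libraries 1 to 4, with no overlap between the groups. The mean rose from 149 ± 29.4 to 206 ± 14.97 CPM (SD, n = 4 each), a log2 fold change of 0.47 (SE 0.15, adjusted p = 0.035 by edgeR, 95% interval 0.15 to 0.79). That call was lost without FL library 3 or 4 or KO library 2, 3 or 4 (adjusted p between 0.059 and 0.084, within a span of 6.9e-04 to 0.59 for all fits). It was also lost without KO libraries 2 and 3 together (0.46, adjusted p = 0.17), with the replicate number as a block (adjusted p = 0.0501) and with genes detected as a covariate (0.42, adjusted p = 0.59).

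Idh2 (chromosome 7, 80094846 to 80115392) was the most abundant member, at 524, 524, 632 and 558 CPM in FL libraries 1 to 4 and at 486, 424, 366 and 362 CPM in KO libraries 1 to 4. All KO libraries lay below all FL libraries, and the mean fell from 560 ± 51.0 to 409 ± 58.3 CPM (SD, n = 4 each). On the log2 scale this was -0.45 (SE 0.13, adjusted p = 0.023 by edgeR, 95% interval -0.74 to -0.17). The call was lost without KO library 2, 3 or 4 (adjusted p between 0.051 and 0.066, within a span of 0.0077 to 0.67 for all fits), without KO libraries 2 and 3 together (-0.40, adjusted p = 0.19) and with genes detected as a covariate (-0.32, adjusted p = 0.67). Under total-count scaling the libraries overlapped, at 381 to 501 CPM in FL and 444 to 584 CPM in KO, and the log2 fold change was 0.14 (adjusted p = 0.40). The fall of Idh2 is therefore a fall relative to the median of all genes. It was not a fall in rank, as its mean percentile per kilobase among the ranked genes was 98.2 in FL and 98.6 in KO.

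The change of scaling moves all genes by nearly the same amount, so a member's distance from the median of all genes is nearly the same under either by construction, and the pair of values below is no check of one by the other. Relative to that median, Tet1 stood at 1.87 under TMM scaling and 1.88 under total-count scaling on the log2 scale, Dnmt3a at 0.59 and 0.58, and Idh1 at 0.42 and 0.41. Tet2 stood at -0.003 and -0.008 and Dnmt3b at 0.001 and 0.008, both close to the median gene. Tet3 stood at -0.30 and -0.29, Dnmt1 at -0.53 and -0.51, and Idh2 at -0.50 and -0.50. In calls, total-count scaling gave 5 members higher, with Dnmt3b (0.65, adjusted p = 0.015) and Tet2 (0.63, adjusted p = 0.0084) added, and 0 lower, beside 51.7% of all genes higher and 5.09% lower. All 8 log2 fold changes were above 0 in that edgeR fit, so none was lower at any p.

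**Figure D2:**
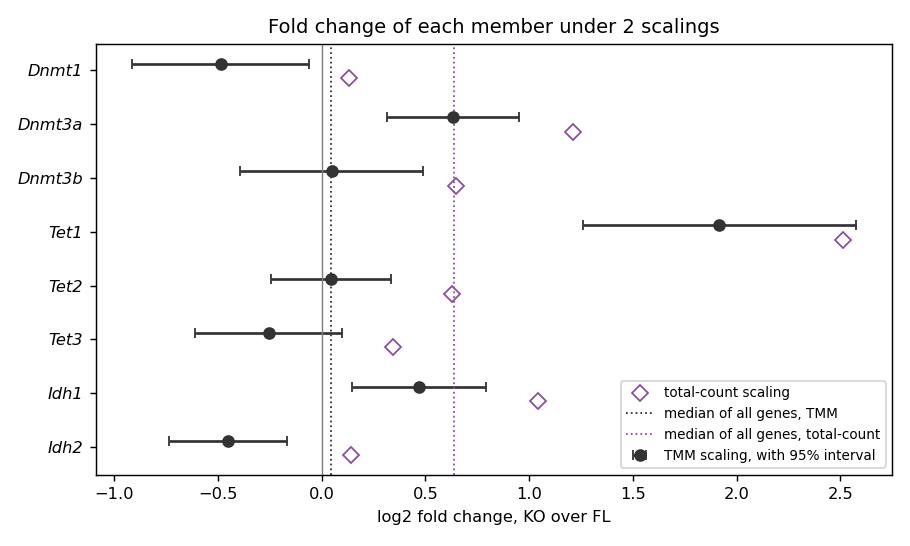
Log2 fold change of each member, KO over FL, with TMM scaling (filled circles, bars are 95% intervals, n = 4 per group) and with total-count scaling (open diamonds). Dotted lines are the medians of all 17418 genes, 0.05 and 0.64. Tet1, Dnmt3a and Idh1 lie above the median of their scaling, Tet2 and Dnmt3b on it, and Tet3, Dnmt1 and Idh2 below it.

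Ratios between 2 members within 1 library do not depend on library scaling. Of 6 ratios compared, 4 had no overlap between the groups, and each of these gave p = 0.0286 in an exact two-sided permutation test, the smallest p that 70 splits of 8 libraries allow (0.0429 after adjustment over the 6 ratios). The share without overlap was not computed for other pairs of genes. Of single genes, 15.1% lay higher and 15.8% lower in KO without overlap. Each of the 4 ratios holds at least 1 member whose own groups did not overlap, so nothing is read from the count. Tet1 reads per Tet2 read were 0.0936, 0.0613, 0.0701 and 0.0887 in FL libraries 1 to 4 and 0.429, 0.275, 0.148 and 0.300 in KO libraries 1 to 4, a mean log2 difference of 1.80. Dnmt3a reads per Dnmt1 read were 0.331, 0.305, 0.287 and 0.176 in FL and 0.681, 0.533, 0.354 and 0.809 in KO, a mean log2 difference of 1.08. The highest FL and the lowest KO library of this ratio were close to each other, at 0.331 and 0.354.

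Idh1 reads per Idh2 read were 0.320, 0.332, 0.172 and 0.262 in FL libraries 1 to 4 and 0.385, 0.484, 0.573 and 0.618 in KO libraries 1 to 4, a mean log2 difference of 0.95. The ratio of cytosolic to mitochondrial IDH transcripts was thus higher in every KO library. Every KO library already lay above all FL libraries for Idh1 and below them for Idh2. The separation of the ratio and its p were therefore fixed, and add no support to either call. The call of Idh1 alone was lost in 8 of 18 alternatives and that of Idh2 in 6. Tet2 reads per Dnmt3a read were 1.28, 1.31, 1.21 and 1.39 in FL and 0.596, 0.942, 1.03 and 0.970 in KO, a mean log2 difference of -0.58. The FL libraries were tightly grouped in this ratio, and KO library 1 was the lowest of all. Dnmt3b per Dnmt3a differed by -0.58 (exact permutation p = 0.0571, adjusted p = 0.0686) and Tet3 per Tet2 by -0.31 (exact permutation p = 0.371), with overlap between the groups in both.

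**Figure D3:**
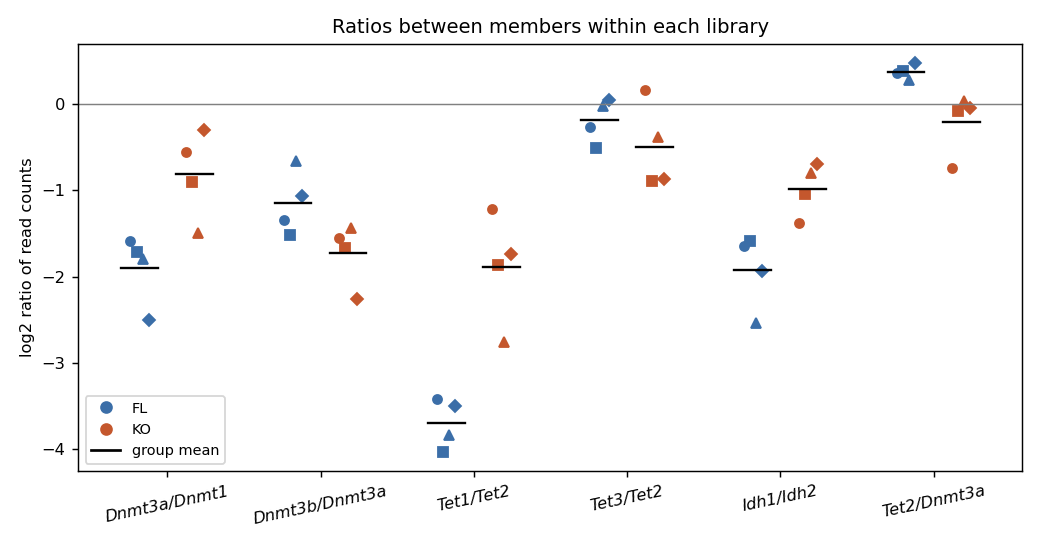
Log2 ratio of read counts between 2 members in each of the 8 libraries, with symbols for the replicate number as in the plot of levels and a line at each group mean (n = 4). The groups separate for Dnmt3a/Dnmt1, Tet1/Tet2, Idh1/Idh2 and Tet2/Dnmt3a and overlap for Dnmt3b/Dnmt3a and Tet3/Tet2.

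Levels of different genes were compared per kilobase of exon. In FL the order was Idh2 (216 CPM per kilobase), Idh1 (53.8), Dnmt1 (28.8), Dnmt3b (4.97), Tet2 (4.26), Tet3 (3.79), Dnmt3a (3.34) and Tet1 (0.364). The library ranges of Idh1 and Dnmt1 overlapped, as did those of each neighbouring pair from Dnmt3b to Dnmt3a, so the order within that middle group is not set beyond the spread. It also depends on the gene length: with the length of the transcript that has the longest coding sequence, Tet3 followed Dnmt1 in FL at 10.6 CPM per kilobase, above Tet2 (7.97) without overlap, followed by Dnmt3b (5.87) and Dnmt3a (5.74). In KO the order was Idh2 (158), Idh1 (74.5), Dnmt1 (20.6), Dnmt3a (5.18), Dnmt3b (5.13), Tet2 (4.39), Tet3 (3.17) and Tet1 (1.38), with overlapping neighbours from Dnmt3a to Tet3. Among the 16957 ranked genes, Tet1 moved from a mean percentile of 22.3 in FL to 38.1 in KO and Dnmt3a from 55.1 to 62.3. Idh2 stood at a mean percentile of 98.2 in FL and 98.6 in KO.

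Of the members, 2 share exonic bases with a gene on the opposite strand, and reads from such bases cannot be assigned without a stated strand setting. The antisense gene Dnmt3aos shares 133 exonic bases with Dnmt3a and had at most 10 reads in any library, and Gm42567 shares 43 with Tet2 and had 6 to 49 reads. After the mean of each group was removed, the genes whose log2 CPM most resembled Tet1 over the 8 libraries were Nisch (Pearson r = 0.99) and Snx10 (0.97), and those most like Dnmt3a were Slc29a3 and Rad54l2 (0.98 each). For Idh1 they were Glyr1 (0.99) and Zfp110 (0.98), and for Idh2 Zkscan17 and Gigyf1 (0.97 each). These are the highest of 9074 candidate genes over few libraries, and are given as a description. The libraries share a preparation protocol but differ in depth and in genes detected.

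The other genes of the pathway were read from lists, beside a median of 0.05 over all genes and shares of all genes called higher and lower of 13.0% and 14.9%. Under total-count scaling those shares were 51.7% and 5.09%, and without KO libraries 2 and 3 they were 5.44% and 7.31%. Of 10 maintenance genes and DNMT partners, 4 fell and 0 rose (median -0.27; DESeq2 also called 0 higher). Uhrf1, which brings DNMT1 to hemimethylated DNA behind the replication fork, went from 257 ± 54.5 to 145 ± 35.0 CPM (-0.82, SE 0.20, adjusted p = 0.011 by edgeR), the replication clamp gene Pcna changed by -0.75, and Dnmt3l, a partner of the de novo enzymes that has no catalytic activity, by -1.14. The fourth that fell was Cdca7. Under total-count scaling 0 of the 10 were lower and 5 higher, without KO libraries 2 and 3 there were 3 lower and 0 higher, and the total-count values of Uhrf1, Pcna and Dnmt3l were -0.21, -0.15 and -0.57.

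Of 10 methyl-CpG readers, 1 rose and 0 fell (median 0.14; 7 higher and 0 lower under total-count scaling, 0 and 0 without KO libraries 2 and 3, 2 and 0 by DESeq2). The gene that rose was Mbd4, a reader with glycosylase activity, by 0.34 (adjusted p = 0.048 by edgeR). That call was lost in each run without 1 library except that without KO library 4. It was also lost without a count filter, with the replicate block and without KO libraries 2 and 3 (adjusted p = 0.39). Of 12 measured genes for the removal of oxidised bases, 2 rose and 2 fell, near the shares of all genes (median 0.20; 9 higher and 0 lower under total-count scaling, 0 higher and 1 lower without KO libraries 2 and 3). The 2 that rose were Polb and Mbd4, which is the same gene as counted among the readers. Tdg, the glycosylase that excises bases oxidised by TET enzymes, fell from 81.8 ± 11.7 to 53.3 ± 7.47 CPM (-0.62, SE 0.14, adjusted p = 0.0073 by edgeR), the endonuclease gene Apex1 changed by -0.97, and the polymerase gene Polb rose by 0.50. The calls of Tdg and Apex1 were lost under total-count scaling (-0.03 and -0.38) and those of Tdg and Polb without KO libraries 2 and 3 (adjusted p = 0.063 and 0.12). The call of Polb was also lost without a count filter and without FL library 1, KO library 1 or KO library 2.

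Of 7 measured TET partners, 2 rose and 0 fell (median 0.04; 6 higher and 0 lower under total-count scaling, 1 and 0 without KO libraries 2 and 3, 2 and 0 by DESeq2). Cxxc5, which encodes a CXXC zinc finger protein that binds unmethylated CpG DNA, rose from 2.89 ± 0.752 to 9.78 ± 4.14 CPM (1.76, SE 0.32, adjusted p = 0.0026 by edgeR). It passed under all 18 alternatives. The stricter filter kept Cxxc5 only through the KO libraries, where it is high, so that fit adds no support. Dcaf1, a ubiquitin ligase subunit, rose by 0.62 (adjusted p = 0.012), with adjusted p = 0.056 without KO libraries 2 and 3. Ogt, whose product binds TET proteins, had 0.29 (adjusted p = 0.33). Of 12 measured genes of methyl donor supply, 5 fell and 1 rose (median -0.07; 1 lower and 6 higher under total-count scaling, 4 lower and 0 higher without KO libraries 2 and 3). Mat2a, which makes the methyl donor S-adenosylmethionine, changed by -0.86 (adjusted p = 4.8e-04 by edgeR), Ahcy, which clears the by-product of methyl transfer, by -0.94, Shmt2, of mitochondrial one-carbon metabolism, by -1.32, and Mtap, of methionine salvage, by -0.71. Under total-count scaling the calls of Mat2a (-0.26, adjusted p = 0.095), Ahcy (-0.32, adjusted p = 0.10) and Mtap (-0.12, adjusted p = 0.57) were lost and that of Shmt2 (-0.73) was kept.

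Of 27 genes of the citric acid cycle and of oxoglutarate metabolism, 15 fell and 0 rose, as also by DESeq2 (median -0.48; 3 lower and 7 higher under total-count scaling, median 0.12; 12 lower and 0 higher without KO libraries 2 and 3). Got1, a cytosolic aminotransferase that uses oxoglutarate, fell from 34.9 ± 1.85 to 10.3 ± 2.05 CPM (-1.76, SE 0.15, adjusted p = 5.0e-05 by edgeR) and passed under all 18 alternatives. The malate dehydrogenase genes Mdh2 and Mdh1 changed by -1.19 and -0.66, and Idh3a, of the NAD-dependent IDH, by -0.62, where the values of Mdh1 and Idh3a under total-count scaling were -0.07 and -0.04. The list of germline genes, whose silencing in somatic cells is tied to DNA methylation, held few measured members. Of 18 germline genes 3 were measured and 0 were called by edgeR (0 by DESeq2, and 0 lower at an unadjusted p under 0.05), and the list summed to 1.68 to 4.31 CPM in FL and 2.38 to 6.51 CPM in KO. Of 21 imprinted genes, a separate list, 11 were measured, and 2 were called higher and 0 lower by edgeR. The higher count was 4 by DESeq2, 6 at an unadjusted p under 0.05, 8 under total-count scaling and 1 without KO libraries 2 and 3, and the lower count was 0 in each. The 2 genes, Igf2r and Plagl1, passed the count filter only through the KO libraries, where they are high, so their levels are given as a description and nothing is read from the count. Igf2r, the receptor that clears IGF2, was at 0.0444 to 0.299 CPM in FL and 1.102 to 4.61 CPM in KO, highest in KO library 3. Plagl1 was at 0 to 0.200 CPM in FL and 0.260 to 0.524 CPM in KO. Except for Cxxc5 and Got1, the pathway genes whose values are given here as called lost their calls when the count of detected genes was a covariate.

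**Figure D4:**
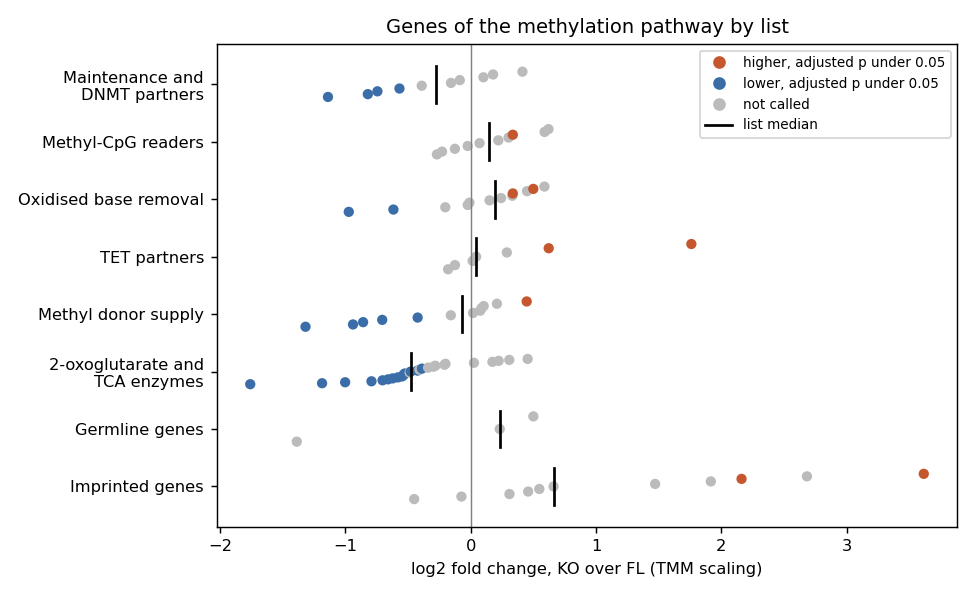
Log2 fold change, KO over FL under TMM scaling, of each measured gene of 8 pathway lists; orange points are called higher, blue points called lower and grey points not called, and the black line is the list median. The 2-oxoglutarate and citric acid cycle list has 15 of its 27 genes called lower, and the TET partner Cxxc5 is the point furthest right in its list at 1.76.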

How the data were processed

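RNA was extracted with a miRNeasy kit, amplified by the Geo-seq method and made into libraries with a TruePrep transposase kit, per the labels' protocols. The authors deposited 1 table of raw counts, by gene symbol, covering the 8 libraries. Per the submitters' processing notes Bowtie 0.12.9, HTSeq 0.13.5, DESeq2 and mm10 were used (no roles stated), and featureCounts appears in the table's sheet name. Annotation, strand setting and multi-mapping rule: not given in the sources used here. The protocols mention no UMIs, and PCR copies are therefore counted as reads. Columns named WT were taken as the FL libraries of the same number.

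Counts were tested with edgeR 4.0.16 in R 4.3.3 (TMM, filterByExpr, quasi-likelihood F test, no covariate); standard errors are the log2 fold change over the square root of F. No pair of libraries in a group was a copy (lowest chi-square per degree of freedom 21.2). Alternatives were DESeq2 1.42.0, limma-voom (limma 3.58.1), RLE, upper-quartile and total-count scaling, no filter, 5 CPM in 4 libraries, a replicate block, genes detected as a covariate, and libraries left out. The fits were tested on simulated data. Lengths came from GENCODE M21 (mm10), with 1 length for 96.2% of symbols.

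Members, lists and tests were chosen with earlier results of these data known. Named genes were the 8 members, Dek, up to 3 genes per list by smallest p, the genes Uhrf1, Tdg, Mat2a, Ahcy and Idh3a, and for each called member the 2 most similar genes of 5 CPM or more. Cdca7 was named after its values were seen, to complete a count. A further gene of the rule is not reported here.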

Additional observations from a re-analysis of the deposited data

Results flagged for a closer look

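The log2 ratio of Tet2 to Dnmt3a reads was -0.75 in KO library 1, below the other KO libraries at -0.09 to 0.04, a gap that was large for a group of 4. It was the only such case among 30 groups of 4 libraries looked at, covering the levels of the members and Dek and the 6 ratios, and chance alone marks about 1 group in 20.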

How the results depend on the processing

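Of the members, Tet1 passed in all 18 alternative fits, Dnmt3a in 17, Idh2 in 12 and Idh1 in 10. For Tet1 the fit with the stricter filter adds no support, as only its KO libraries met that filter's requirement. With all genes, 4853 calls became 9898 under total-count scaling, 3140 under the stricter filter, 205 with genes detected as a covariate and 2342 without KO libraries 2 and 3, and 3397 to 5033 with 1 library left out. The members called higher numbered 5 under total-count scaling and 1 (Tet1) with the covariate, and 2 to 3 with 1 library left out. Those called lower numbered 0 under total-count scaling, with the covariate and without KO libraries 2 and 3, 2 without a filter, and 0 to 1 with 1 library left out. Values that changed sign under total-count scaling were Dnmt1 (0.13), Tet3 (0.35; 0.21 with the covariate) and Idh2 (0.14). With 1 library left out Dnmt3b ranged from -0.15 to 0.18 and Tet2 from -0.0697 to 0.11. List medians under total-count scaling were 0.32 (maintenance), 0.51 (methyl donors), 0.12 (oxoglutarate), 0.73 (readers), 0.77 (base removal), 0.64 (TET partners), 0.78 (germline) and 1.25 (imprinted), where the construction raises all genes. The cause of the other changes was not tested. The ratios kept their direction with 1 library left out: 0.88 to 1.31 for Dnmt3a/Dnmt1, 1.58 to 2.09 for Tet1/Tet2, 0.74 to 1.08 for Idh1/Idh2, -0.66 to -0.40 for Tet2/Dnmt3a, -0.71 to -0.41 for Dnmt3b/Dnmt3a and -0.53 to -0.17 for Tet3/Tet2. Same-numbered FL and KO libraries shared only a number (correlations of deviations 0.02 to 0.05); with the replicate block 4339 genes passed, and Idh1 was the 1 member whose call changed (0.49, adjusted p = 0.0501). FL library 1 was the 1 of 4 whose best match had its own number.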
